A study of Mus musculus with 24 samples.

Results

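The microRNAs miR-148a, miR-148b and miR-152 form a family that shares a seed, the stretch of bases at the 5′ end through which a microRNA pairs with its target messenger RNAs. Their assays, mmu-miR-148a, mmu-miR-148b and mmu-miR-152, were chosen by name from 2 real-time PCR cards and are 3 of 584 microRNA assays; all 3 lie on card A, with 1 well per animal. MicroRNAs were measured in the soleus, a slow-twitch postural muscle of the calf, of 12 male mice aged 12 weeks, in 4 groups of 3. The study compared mice that overexpress a peroxisome proliferator-activated receptor (PPAR) in muscle with their own controls. MCK-PPARa mice carry a transgene for PPARα and NTGa mice are their non-transgenic, wild-type littermates. MCK-PPARb mice carry a transgene for PPARβ and NTGb mice are their non-transgenic, wild-type littermates. No group carries any other allele or treatment in the labels, and MCK stands for the muscle creatine kinase promoter, which acts in striated muscle. The level of the receptors themselves was not analysed here, and the labels do not say whether each transgene is represented by 1 founder line.

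MicroRNAs of this family lower the output of messenger RNAs that carry sites matching the shared seed, so the members can act on overlapping targets. In human cells miR-148a and miR-152 are known to act on DNA methyltransferase DNMT1, in liver miR-148a acts on the cholesterol transporter ABCA1 and the LDL receptor, and in mouse myoblasts miR-148a favours differentiation through ROCK1. PPARα and PPARβ bind fatty acids and drive the genes that burn them. miR-148b and miR-152 lie in introns of Copz1 and Copz2, genes for related subunits of the vesicle coat COPI.

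The mature sequences are shown because the family is defined by them and because the members differ from each other by very few bases. Capitals mark the seed, bases 2 to 8 counted from 1 at the 5′ end; the sequences are those of RefSeq on GRCm38.p6, which held an entry for 3 of 3 members.
miR-148a: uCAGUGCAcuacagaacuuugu
miR-148b: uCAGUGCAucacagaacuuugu
miR-152: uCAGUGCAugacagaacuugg
miR-148a comes from the minus strand at chr6:51269829-51269850, miR-148b from the plus strand at chr15:103285185-103285206 and miR-152 from the plus strand at chr11:96850439-96850459. From miR-148a to miR-148b there are 2 substitutions, C9U and U10C. From miR-148b to miR-152 there are also 2 substitutions over the shared 21 bases, C10G and U20G, and miR-152 is 1 base shorter. The assays therefore had to tell apart RNAs that are identical at 20 of 22 bases; how far each assay reads its neighbour was not tested. Of 1679 mature mouse microRNA names in the RefSeq table, 3 have this seed, and those are the 3 members.

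The 3 genes also share their surroundings. In the RefSeq annotation each lies within the bounds of a protein-coding gene, Copz1 for miR-148b, Copz2 for miR-152 and the predicted gene Gm38821 for miR-148a. Each has a gene of the NFE2 family of transcription factors among its nearest protein-coding neighbours: Nfe2l3 at rank 2 by distance from Mir148a, Nfe2 at rank 3 from Mir148b and Nfe2l1 at rank 2 from Mir152. A gene of the CBX family, which encodes heterochromatin protein 1, follows at rank 4 (Cbx3), rank 6 (Cbx5) and rank 3 (Cbx1).

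Ct is the number of PCR cycles a well needs to reach a set fluorescence, and each cycle fewer stands for about a doubling of template. Values below are given as Ct or as relative abundance, which is the mean Ct of the 149 card A microRNAs detected in all 12 animals minus the Ct of the member, on the log2 scale. A microRNA was detected at a Ct under 35. In whole muscle, fewer cells of a type that holds a microRNA and less of it per cell cannot be told apart. Per animal, 248 to 296 microRNAs were detected, most in NTGb replicate 2, and the median correlation of an animal with the others over the tested microRNAs, which are not independent, was 0.933 in MCK-PPARa replicate 1 and 0.960 to 0.974 in the rest. Of the 6 skeletal muscle markers, miR-133a had a mean Ct of 17.4, miR-206 18.4, and miR-1 and miR-133b 20.9 each. The slow-fibre markers miR-499 and miR-208b were weaker, with mean Ct of 28.8 and 32.6, while liver miR-122 and 4 of 6 epithelial markers were detected too rarely to be tested. The reference Ct of card A averaged 28.0 ± 0.0807 in MCK-PPARa and 27.8 ± 0.127 in NTGa (SD, n = 3 each; two-sided exact permutation test, p = 0.2). For the PPARβ line the values were 28.1 ± 0.0621 in MCK-PPARb and 28.1 ± 0.492 in NTGb, with an exact p of 1; 3 animals against 3 cannot give a p under 0.1.

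All 3 members were detected in 12 of 12 animals, at clearly different Ct. miR-152 had Ct 27.0 to 28.2 (median 27.4), miR-148a 29.6 to 32.3 (median 30.8) and miR-148b 31.8 to 34.8 (median 33.3). The ranges of miR-152 and of the other members did not overlap, and in every animal the order was miR-152, miR-148a, miR-148b. By mean Ct, lowest first, they ranked 59, 118 and 159 among the 180 tested assays of card A. The assays may amplify with different efficiency, so these ranks order Ct and not molecules.

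miR-148b was higher in every MCK-PPARa animal than in any NTGa animal, while in the PPARβ line its mean was lower in transgenic mice. It came to attention through its low unadjusted p in MCK-PPARb against NTGb and in the contrast of both transgene effects, in earlier results from these data. Its values are therefore a description and carry no test. In MCK-PPARa replicates 1 to 3 its relative abundance was -4.50, -4.94 and -5.04, against -5.79, -6.56 and -5.86 in NTGa replicates 1 to 3. The lowest MCK-PPARa animal thus lay above the highest NTGa animal. MCK-PPARa averaged -4.83 ± 0.288 and NTGa -6.07 ± 0.429 (SD, n = 3 each), a log2 difference of 1.24 (SE 0.47), or 2.36-fold. In MCK-PPARb replicates 1 to 3 the values were -4.92, -6.56 and -5.70, against -4.02, -4.28 and -5.48 in NTGb replicates 1 to 3. These groups overlapped, since MCK-PPARb replicate 1 lay above NTGb replicate 3. MCK-PPARb averaged -5.73 ± 0.820 and NTGb -4.59 ± 0.780 (SD, n = 3 each), a log2 difference of -1.14 (SE 0.47).

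**Figure D1:**
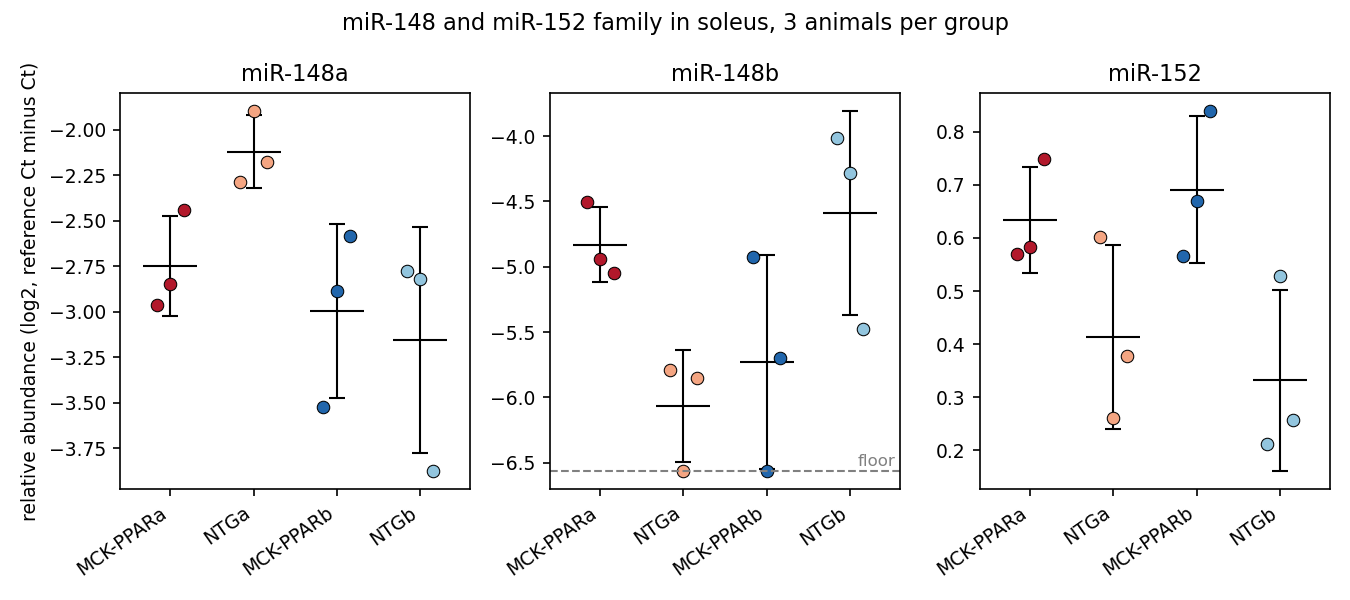
Relative abundance (log2, reference Ct minus Ct; y axes differ between panels) of miR-148a, miR-148b and miR-152 in each of 12 animals by group, with the mean and SD of 3 animals in black. For miR-148b the MCK-PPARa animals lie above every NTGa animal and the dashed line is the floor of -6.56, at which NTGa replicate 2 and MCK-PPARb replicate 2 were set.

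In terms of Ct, miR-148b was at 32.6, 32.9 and 32.9 in MCK-PPARa replicates 1 to 3, against 33.6, 34.6 and 33.8 in NTGa. It was at 33.0, 34.8 and 33.8 in MCK-PPARb, against 32.4, 31.8 and 33.9 in NTGb. Its highest Ct was thus close to the detection limit of 35. NTGa replicate 2 and MCK-PPARb replicate 2 were detected but scaled to -6.97 and -6.83, under the floor of -6.56 that was set for all of card A, and so entered at the floor. With no detection limit and no floor the log2 differences were 1.37 (SE 0.55) for MCK-PPARa against NTGa and -1.23 (SE 0.55) for MCK-PPARb against NTGb.

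The size moved with single animals. Without MCK-PPARb replicate 2 the log2 difference of miR-148b between MCK-PPARb and NTGb was -0.72, in place of -1.14. Without NTGa replicate 2 that between MCK-PPARa and NTGa was 0.99, in place of 1.24. NTGb replicate 3, with the fewest microRNAs detected (248), was the lowest NTGb animal for miR-148b, and without it the value in the PPARβ line was -1.60. Without NTGb replicate 2, with the most detected (296), it was -0.98. It was -1.53 without MCK-PPARb replicate 1. Without MCK-PPARa replicate 1 that in the PPARα line was 1.07.

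miR-148a, the member with a reported role in myoblast differentiation, had a lower mean in the transgenic mice of the PPARα line, a difference that did not pass the test. Its relative abundance was -2.96, -2.85 and -2.44 in MCK-PPARa replicates 1 to 3, against -2.29, -1.90 and -2.18 in NTGa. All 3 transgenic animals lay below all 3 controls, with a gap between the nearest animals that was small beside the spread within each group. The means were -2.75 ± 0.274 in MCK-PPARa and -2.12 ± 0.201 in NTGa (SD, n = 3). The log2 difference of -0.63 (SE 0.34, 95% interval -1.39 to 0.13) did not pass in limma (adjusted p = 0.42 over 268 assays, and 0.283 to 0.881 under the alternatives). Against all 6 non-transgenic animals it was -0.11. In MCK-PPARb the values were -3.52, -2.89 and -2.58, against -2.78, -2.82 and -3.87 in NTGb, and the groups overlapped widely. The log2 difference there was 0.16 (SE 0.34), with means of -3.00 ± 0.479 in MCK-PPARb and -3.16 ± 0.621 in NTGb. It was -0.21 without NTGb replicate 3, -0.05 without MCK-PPARb replicate 3 and 0.43 without MCK-PPARb replicate 1, so that its sign rested on single animals.

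miR-152 was the most abundant by Ct and varied least. It stood at 0.57, 0.58 and 0.75 in MCK-PPARa replicates 1 to 3, against 0.60, 0.26 and 0.38 in NTGa, and the groups overlapped. The log2 difference was 0.22 (SE 0.19, 95% interval -0.21 to 0.65, limma adjusted p = 0.683). With U6 snRNA as reference it was 0.032 and with no scaling 0.035, both with the same sign. In MCK-PPARb it stood at 0.57, 0.67 and 0.84, against 0.21, 0.53 and 0.26 in NTGb. Each MCK-PPARb animal lay above each NTGb animal, the nearest being 0.57 in MCK-PPARb and 0.53 in NTGb. The log2 difference was 0.36 (SE 0.19), with means of 0.69 ± 0.138 in MCK-PPARb and 0.33 ± 0.171 in NTGb (SD, n = 3); it was 0.17 with the median Ct and 0.67 with U6 snRNA as reference.

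These separations must be read against the background. In MCK-PPARa against NTGa, limma called 6 of 268 assays at an adjusted p under 0.05, or 2.24%, and neither miR-148a nor miR-152 was among them. At an unadjusted p under 0.05 there were 44 (16.4%). The groups did not overlap for 69 assays (25.7%), of which 40 were higher in MCK-PPARa (14.9%) and 29 were lower (10.8%), miR-148b and miR-148a included. In MCK-PPARb against NTGb limma called 0 assays (0%), with 23 at an unadjusted p under 0.05 (8.58%) and 1 called when animals were weighted. The groups did not overlap for 29 assays that were higher in MCK-PPARb (10.8%), miR-152 included, and 12 that were lower (4.48%). Since the PPARβ comparison and the difference of effects brought the family to attention, no member is given a p in either.

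**Figure D2:**
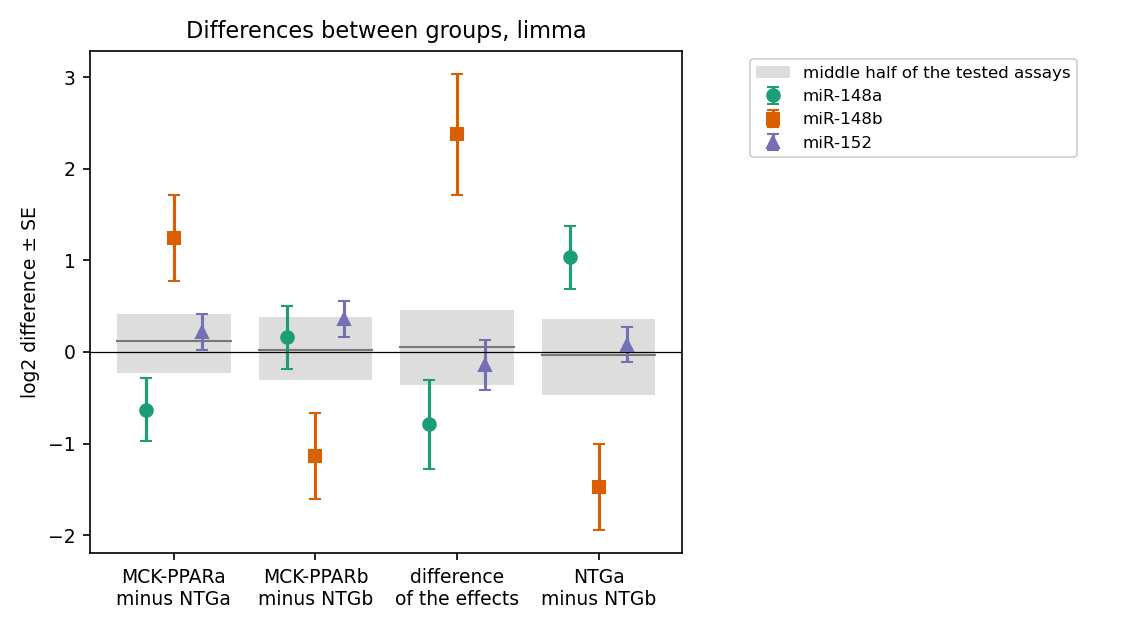
Log2 differences between groups with their SE from limma for miR-148a, miR-148b and miR-152. Grey bars span the interquartile range of all tested assays and grey lines their median. miR-148b lies at 1.24, -1.14, 2.37 and -1.48 from left to right, beyond the grey bars each time, while miR-152 lies inside all of them. miR-148b was picked with its values at -1.14 and 2.37 in view, so its place beyond the bars is a description.

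The size of each difference can be read against that of all tested assays. In MCK-PPARa against NTGa, 88.4% of the tested assays had a smaller absolute log2 difference than miR-148b, 71.6% a smaller one than miR-148a and 31.7% a smaller one than miR-152. In MCK-PPARb against NTGb these shares were 94.0%, 29.1% and 53.0%. miR-148b was picked by its low unadjusted p in that comparison and in the contrast of the effects, so its shares are a description only. The median log2 difference of all tested assays was 0.12 in the PPARα line and 0.02 in the PPARβ line. The difference of the effects, MCK-PPARa minus NTGa less MCK-PPARb minus NTGb, was 2.37 (SE 0.66) for miR-148b, -0.79 (SE 0.49) for miR-148a and -0.14 (SE 0.27) for miR-152. For miR-148a it was -0.42 without NTGb replicate 3, -0.49 with the median Ct and -1.29 with U6 snRNA as reference. Over all tested assays it was called for 3 (1.12%), with 28 at an unadjusted p under 0.05 (10.4%).

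The non-transgenic groups, which are both wild type in the labels, differed from each other in miR-148b, and without overlap also in miR-148a. The summed markers of fibroblasts and smooth muscle did not overlap between them either. miR-148b was lower in NTGa than in NTGb by a log2 difference of -1.48 (SE 0.47), and all 3 NTGa animals lay below all 3 NTGb animals. miR-148a was higher in NTGa, also without overlap, with a log2 difference of 1.04 (SE 0.34, 95% interval 0.28 to 1.80); it did not pass over all assays (limma adjusted p = 0.163, and 0.051 to 0.352 under the alternatives). Without NTGb replicate 3 it was 0.66. miR-148a was at 1.59 with U6 snRNA as reference. miR-152 differed by 0.08 (SE 0.19, limma adjusted p = 0.852), by 0.63 with U6 snRNA as reference (adjusted p = 0.177), by 0.43 with no scaling and by -0.21 with the median Ct. Between these control groups limma called 5 of 268 assays (1.87%), with 42 at an unadjusted p under 0.05 (15.7%). The groups did not overlap for 52 assays (19.4%), of which 26 were higher (9.70%) and 26 lower (9.70%) in NTGa.

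The transgenic groups stood closer to each other than the control groups did for miR-148b and miR-148a. MCK-PPARa minus MCK-PPARb gave 0.90 (SE 0.47) for miR-148b, and 0.48 without MCK-PPARb replicate 2. It gave 0.25 (SE 0.34, 95% interval -0.51 to 1.01, limma adjusted p = 0.764) for miR-148a and -0.06 (SE 0.19, 95% interval -0.49 to 0.37, adjusted p = 0.902) for miR-152. All 3 members overlapped between the transgenic groups, where limma called 8 of 268 assays (2.99%), with 37 at an unadjusted p under 0.05 (13.8%), and 66 did not overlap (24.6%). Over the 4 groups the mean of miR-148b ran from NTGb (-4.59) over MCK-PPARa (-4.83) and MCK-PPARb (-5.73) to NTGa (-6.07), and neighbours in this order overlapped. That of miR-148a ran from NTGa (-2.12) over MCK-PPARa (-2.75) and MCK-PPARb (-3.00) to NTGb (-3.16); of these neighbours the first 2 did not overlap. For both, the control groups were the ends of the order. Set against all 6 non-transgenic animals, miR-148b was at 0.50 (SE 0.54) in MCK-PPARa and at -0.40 (SE 0.54) in MCK-PPARb.

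Because the 3 members share card A, the difference of their Ct within an animal needs no reference. The log2 ratio of miR-148b over miR-148a was -1.54, -2.10 and -2.60 in MCK-PPARa replicates 1 to 3, against -3.50, -5.07 and -3.68 in NTGa. The ratio was higher in each transgenic animal than in each control, by 2.0 on average on the log2 scale. In MCK-PPARb it was -1.40, -3.95 and -3.11, against -1.24, -1.46 and -1.60 in NTGb. MCK-PPARb replicate 1 lay within the NTGb range and the other two lay far below it, which gave the widest spread of any group (-2.82 ± 1.30 in MCK-PPARb against -1.43 ± 0.185 in NTGb, SD, n = 3). This ratio includes miR-148b and is a description.

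**Figure D3:**
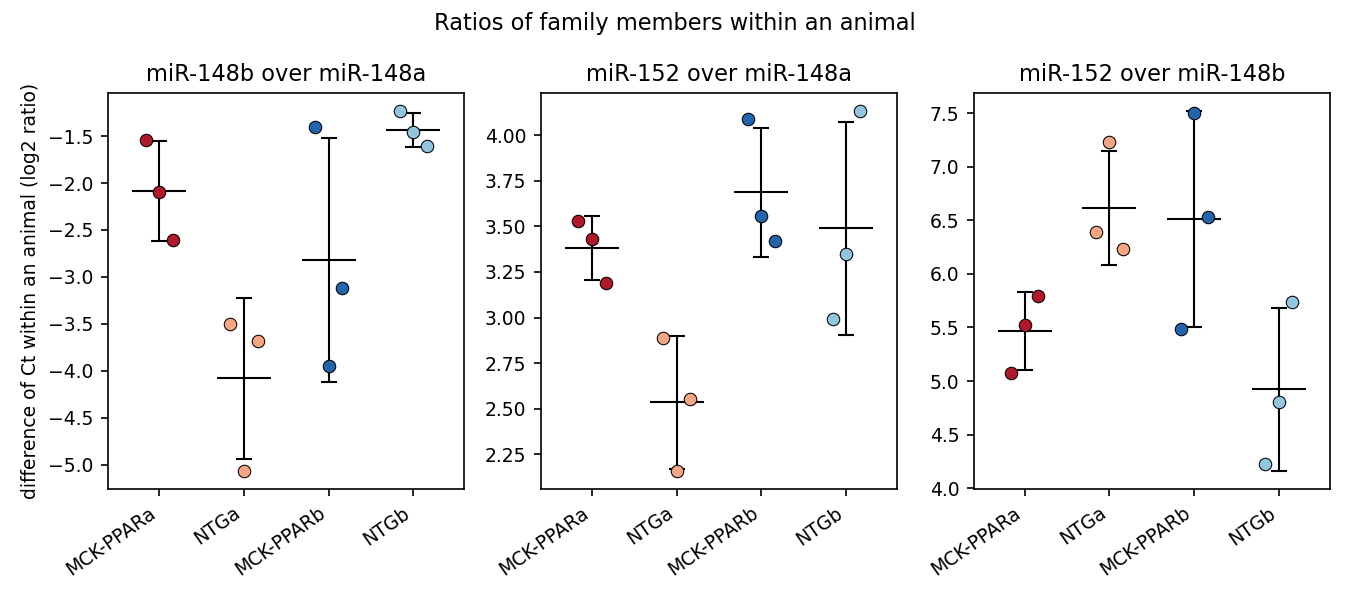
Log2 ratio of each pair of members within an animal, as the difference of their Ct on card A, for 12 animals by group with the mean and SD of 3 animals in black (y axes differ between panels). The ratio of miR-148b over miR-148a averages -2.08 in MCK-PPARa against -4.08 in NTGa, and -2.82 in MCK-PPARb against -1.43 in NTGb.

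The ratio of miR-152 over miR-148a leaves miR-148b out. It was 3.53, 3.43 and 3.19 in MCK-PPARa replicates 1 to 3, against 2.89, 2.16 and 2.55 in NTGa. The groups did not overlap, with a mean difference of 0.85 or 1.80-fold. In MCK-PPARb it was 3.69 ± 0.352 against 3.49 ± 0.583 in NTGb (SD, n = 3). Between the controls it was 2.53 ± 0.365 in NTGa against 3.49 ± 0.583 in NTGb, without overlap. These ratios were added after the values had been seen and carry no test. The ratio of miR-152 over miR-148b averaged 5.46 ± 0.364 in MCK-PPARa against 6.62 ± 0.534 in NTGa, and 6.51 ± 1.01 in MCK-PPARb against 4.92 ± 0.760 in NTGb.

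Precision followed the Ct. In log2 units the residual SD of the fit was 0.15 for miR-152, 0.43 for miR-148a and 0.62 for miR-148b. Among assays detected in all animals with a mean Ct within 1 cycle of the member, the median was 0.36 (35 assays), 0.57 (55 assays) and 0.69 (17 assays). Of such assays 2.86% varied less than miR-152, 32.7% less than miR-148a and 35.3% less than miR-148b. The SD of miR-148b was taken with NTGa replicate 2 and MCK-PPARb replicate 2 at the floor, which narrows its spread. With no detection limit and no floor the SE of its log2 difference in either line was 0.55, in place of 0.47. The members have no second well. On card B, where assays have a pair of wells, these differed by a median of 0.192 cycles between Ct 25 and 30, 0.381 between 30 and 32 and 0.755 between 32 and 35, the range that holds every value of miR-148b but that of NTGb replicate 2.

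**Figure D4:**
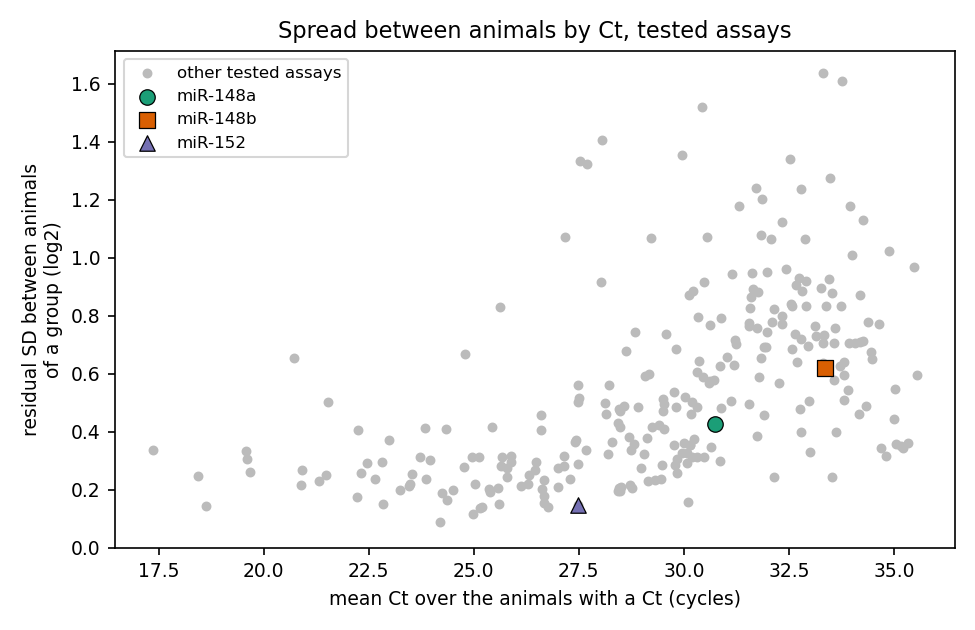
Residual SD of the limma fit (log2 units) against mean Ct for the tested assays, with miR-148a, miR-148b and miR-152 marked. The spread widens above about Ct 30, and miR-152, at 0.15, lies low among assays of like Ct, while miR-148a at 0.43 and miR-148b at 0.62 lie nearer the middle. That of miR-148b was taken with NTGa replicate 2 and MCK-PPARb replicate 2 at the floor, which narrows it.

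The other arms of the family hairpins gave little signal. The assay mmu-miR-148a* had no Ct in any of its 24 wells on card B. The assay rno-miR-148b-5p, made for the rat microRNA, had a Ct in 19 of 24 wells, from 31.6 to 37.1. Its wells disagreed: in NTGa 0 of 3 first wells but 3 of 3 second wells had a Ct, and in the 7 animals with both, the wells differed by a median of 1.61 cycles. With the wells averaged it was detected in 1 of 3 MCK-PPARa, 0 of 3 NTGa, 3 of 3 MCK-PPARb and 1 of 3 NTGb animals. These counts cannot be set against the values of miR-148b. No assay named for the other arm of miR-152 is on either card.

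Correlations between the members were low. The members of an animal were scaled by the same card A reference Ct, which differed between animals. Over 12 animals, the Pearson correlation of relative abundance was -0.37 between miR-148a and miR-148b. It was 0.08 between miR-148a and miR-152 and -0.08 between miR-148b and miR-152. After group means were taken out it was 0.08, 0.38 and 0.08. Among 207 other assays detected in all animals, the most like miR-148b were miR-676 (r = 0.81, and 0.67 after group means were taken out), miR-25 (0.67 and 0.44) and miR-532-3p (0.63 and 0.52). The most like miR-148a were miR-299* (0.76 and 0.64), miR-20a (0.73 and 0.79) and miR-135b (0.68 and 0.41). The most like miR-152 were miR-28 (0.79 and 0.56), miR-98 (0.72 and 0.69) and miR-27a (0.71 and 0.33). These are the highest of many correlations, and are given as a description. Without the 2 animals farthest from the median of the member they were 0.52 to 0.86.

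Other microRNAs that act on targets of the family are given as lists, chosen with earlier results of these data known. Of 7 microRNAs reported to act on DNA methyltransferases in human cells, the miR-29 and miR-101 families among them, 7 were tested; limma called 0 in either line, the medians were -0.06 in the PPARα line and -0.03 in the PPARβ line, and miR-101a had the lowest p in the PPARα line (log2 difference -0.81, SE 0.28, adjusted p = 0.206). All 15 microRNAs taken here as promoters of myoblast differentiation, miR-133a and miR-133b included, were tested, and 0 were called in either line. Of these, 11 were positive in the PPARα line (median 0.23) and 9 in the PPARβ line (median 0.14), against 157 and 137 of all 268 assays. In the PPARα line miR-486 had the lowest p (log2 difference 0.68, SE 0.23, limma adjusted p = 0.206). Of 10 regulators of ABCA1 or the LDL receptor 7 were tested; 0 were called, with medians of 0.17 in the PPARα line and 0.36 in the PPARβ line. The medians of all tested assays were 0.12 and 0.02. In the PPARα line the groups did not overlap for 4 higher and 1 lower of the microRNAs on the differentiation list.

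Markers of other cell types were measured in the same animals. The summed relative abundance of 5 tested leukocyte markers spanned 5.04 to 5.40 in MCK-PPARa against 5.01 to 5.33 in NTGa, and 4.75 to 5.08 in MCK-PPARb against 4.83 to 5.54 in NTGb. That of 5 fibroblast and smooth muscle markers spanned 5.32 to 5.59 in MCK-PPARa against 5.34 to 5.38 in NTGa, and 5.07 to 5.27 in MCK-PPARb against 5.06 to 5.17 in NTGb. The sum of 2 endothelial markers spanned 8.86 to 9.18 in MCK-PPARa against 8.95 to 9.15 in NTGa, and 8.52 to 9.15 in MCK-PPARb against 8.34 to 9.43 in NTGb. All of these summed ranges overlapped within a line, but some single markers did not. In the PPARα line 2 of 5 fibroblast and smooth muscle, 1 of 5 leukocyte and 1 of 2 endothelial markers were higher without overlap. Of these lists 0 markers were lower without overlap there. Over all tested assays 14.9% were higher without overlap in that line. In the PPARβ line 1 leukocyte marker was lower without overlap, against 4.48% of all tested assays. Taken singly, the endothelial markers went opposite ways in the PPARα line. The log2 difference was 0.27 for miR-126-3p (SE 0.29, limma adjusted p = 0.737) and -0.85 for miR-126-5p (SE 0.49, limma adjusted p = 0.443). Erythroid miR-451 was at -1.09 to -0.06 in MCK-PPARa against -1.61 to -0.98 in NTGa, and at -1.27 to -0.90 in MCK-PPARb against -2.04 to -1.31 in NTGb, without overlap in the PPARβ line. Between the control groups the fibroblast and smooth muscle sum, at 5.34 to 5.38 in NTGa against 5.06 to 5.17 in NTGb, did not overlap; between the transgenic groups it did not overlap either. The slow-fibre marker miR-499 fell in MCK-PPARa against NTGa, by a log2 difference of -3.66 (SE 0.30, limma adjusted p = 3.94e-05), and differed by -0.08 (SE 0.30, adjusted p = 0.935) in MCK-PPARb against NTGb. miR-208b, also a slow-fibre marker, differed by -1.31 (SE 0.62, limma adjusted p = 0.334) in the PPARα line and by 1.32 (SE 0.62, adjusted p = 0.532) in the PPARβ line. The part of these cells and fibre types in the values of the family was not tested.

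**Figure D5:**
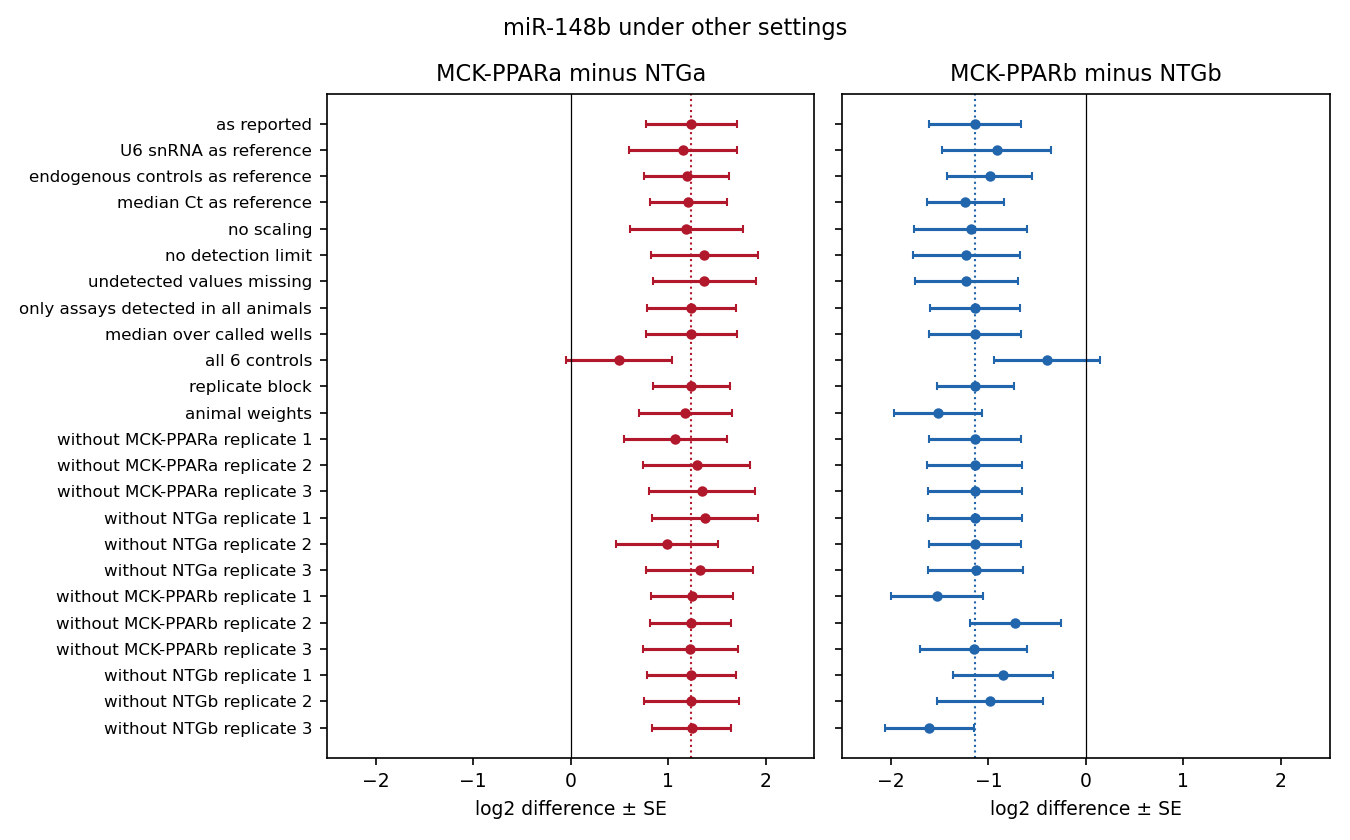
Log2 difference of miR-148b with its SE as reported (top, dotted line) and under each alternative that gave a value, for MCK-PPARa minus NTGa on the left and MCK-PPARb minus NTGb on the right. The sign is kept in each row; the value nearest 0 is that against all 6 controls, 0.50 on the left and -0.40 on the right.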

How the data were processed

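Per the labels' protocols, RNAzol B extracts were assayed by TaqMan PCR over 40 cycles on 2 cards, so that 24 deposited samples were 12 animals. The authors deposited 1 Ct per well, not normalized; how the threshold and baseline were set was not given in the sources used here. All columns were matched by name (0 unmatched). Wells of an assay were averaged, an empty well beside a called one counting as Ct 40. Relative abundance was the mean Ct of the assays detected (Ct under 35) in all animals, 149 on card A and 59 on card B, minus Ct, per card. Values not detected, or lower, were set to a floor (-6.56 on card A, -5.66 on card B). A fold assumes doubling per cycle. An assay was tested if 1 group or more had it detected in each of its 3 animals (268 assays), with limma 3.58.1 in R 4.3.3 over all 12 animals (8 residual degrees of freedom) and Benjamini-Hochberg adjustment over the 268. The labels call the replicates biological, with nothing on litters. The fit was tested on simulated data.

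The members, lists and alternatives were chosen with earlier results of these data known. Named beside the members are assays of their other arms, the 3 most correlated assays of each, and the list member of lowest p. The skeletal muscle, liver, erythroid and endothelial markers were named as well. Groups share replicate numbers, but the reported fit did not pair animals by them. Same-numbered animals of a line correlated from -0.29 to 0.22 in their deviations. These are 6 pairs, too few to exclude a pairing. Alternatives were other scaling references, detection limits, handling of undetected values and wells, controls, animal weights, a replicate block and leaving out each animal.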

Additional observations from a re-analysis of the deposited data

Results flagged for a closer look

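The log2 difference of miR-148b between transgenic mice and their controls was positive in the PPARα line and negative in the PPARβ line. The 2 differences lay 2.37 apart on the log2 scale. Against the mean of its own controls, each MCK-PPARa animal was higher (1.57, 1.12 and 1.02) and each MCK-PPARb animal was lower (-0.33, -1.97 and -1.10). The difference of 2.37 was not tested here, because miR-148b was picked with it in view. It rests on the control groups, which themselves differed by -1.48 (SE 0.47) for NTGa minus NTGb. Set against all 6 non-transgenic animals, miR-148b was at 0.50 (SE 0.54) in MCK-PPARa and at -0.40 (SE 0.54) in MCK-PPARb.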

How the results depend on the processing

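miR-148b kept the sign of all 5 of its differences under every alternative that gave a value; at a limit of Ct 32 it could not be tested. With each animal left out in turn it ran from 0.99 to 1.38 in MCK-PPARa against NTGa, from -1.60 to -0.72 in MCK-PPARb against NTGb and from 1.95 to 2.84 for the difference of the effects. Against all 6 controls it was 0.50 and -0.40, and miR-148a in MCK-PPARb was -0.36. With U6 snRNA as reference the difference of the effects was -1.29 for miR-148a and -0.64 for miR-152, and miR-152 in MCK-PPARb was 0.67. With the mean Ct as reference and without NTGb replicate 3, the difference for miR-148a was -0.42. For miR-152 the difference was -0.32 with the endogenous controls, -0.37 with no scaling and 0.16 with the median Ct. With the median Ct, miR-152 in MCK-PPARb was 0.17 and miR-148a in MCK-PPARb -0.03. Signs of uncalled values turned for miR-152 between NTGa and NTGb with the median Ct (-0.21) and between MCK-PPARa and MCK-PPARb with no scaling (0.058). With an animal left out, miR-152 ran from -0.013 to 0.18 for NTGa minus NTGb and from -0.12 to 0.015 for MCK-PPARa minus MCK-PPARb, and miR-148a for MCK-PPARa minus MCK-PPARb from -0.018 to 0.45. The cause of these moves was not tested. U6 snRNA moved the median of all assays to 0.33 in MCK-PPARb against NTGb and to 0.49 in NTGa minus NTGb, against 0.02 and -0.03 as reported.

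Counts of called assays moved as well. For NTGa minus NTGb, 5 were called as reported, 29 with U6 snRNA (26 higher, 3 lower), 14 with animal weights and 0 at a limit of Ct 32, with no limit, with undetected values missing and with assays detected in all animals; the split was 2 higher and 5 lower with the median Ct and 5 higher and 1 lower with no scaling, against 3 and 2 as reported. For the difference of the effects, 3 were called as reported, 7 with U6 snRNA (1 higher) and 1 with the median Ct (0 higher). For MCK-PPARa against NTGa, 6 were called as reported (3 higher), 3 with undetected values missing, and 4 with U6 snRNA or no scaling (1 higher each). For MCK-PPARa minus MCK-PPARb, 8 were called as reported and 5 with undetected values missing. For MCK-PPARb against NTGb, 0 were called as reported and 1 with animal weights. Leaving out 1 animal gave 4 to 12 in MCK-PPARa against NTGa, 0 to 1 in MCK-PPARb against NTGb, 2 to 6 for the difference, 7 to 13 for MCK-PPARa minus MCK-PPARb and 0 to 7 for NTGa minus NTGb. With the replicate number as a block the log2 differences of miR-148b were 1.24 and -1.14 as before, with an SE of 0.39 in place of 0.47, and no call of a member changed; 4 of 12 animals correlated best with their own number. The single well per animal and the Ct of miR-148b near the limit bound its precision.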
